A study of Homo sapiens with 59 samples.

Results

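The glycolysis and hypoxia response module is a list of 37 genes that encode the enzymes and transporters of glucose breakdown together with well-known targets of the hypoxia-inducible factors (HIF). Members were taken by gene symbol from the deposited count table of human HepG2 cells, in which all 37 were found among 60675 genes. All 37 also passed a filter on low counts and were among the 16641 genes tested. By role the list holds 4 genes of glucose entry and trapping, 9 of upper glycolysis, 6 of lower glycolysis, 3 of pyruvate and lactate handling, 4 of acid balance and secreted factors, 5 of mitophagy and other HIF targets, 5 oxygen-dependent dioxygenases and the oxygen-regulated subunit HIF1A itself.

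HepG2 is an established human liver cancer cell line, and RNA was sequenced 24 h after treatment in 59 libraries that fell into 20 groups. The water extracts were Zingiberis Rhizoma Recens (called fresh ginger here), Zingiberis Rhizoma (dried ginger), Scutellariae Radix (the root of a skullcap), Pinelliae Tuber and Zizyphi Fructus (jujube fruit) at 20, 100 and 500 ug/mL. Coptidis Rhizoma, the rhizome of Coptis, was used at 8.4, 42 and 210 ug/mL. Its doses were lower because the study capped an extract at the concentration that inhibited the cells by 20%. Wortmannin at 10 uM, an inhibitor of the lipid kinase PI3K, was the positive control, and the reference for every treatment was the vehicle DMSO. Each group held 3 libraries, except Pinelliae Tuber at 20 ug/mL with 2. The labels put DMSO at 0.1% for the vehicle, the series text puts it at 2%, and the treated groups are labelled with no DMSO content, so an effect of an extract cannot be told apart from a difference in DMSO in a comparison with vehicle. The labels say that hot water was used on dried plant material for the extracts, also for the one named Recens. All cells were of 1 line, and no group was labelled as hypoxic.

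Cells burn glucose to pyruvate by glycolysis, and when oxygen is short they turn pyruvate to lactate, export it and keep it out of the mitochondria. Under oxygen, prolyl hydroxylases of the EGLN family mark the HIF alpha subunits for destruction; without oxygen, iron or their organic acid cosubstrate the subunits persist, pair with ARNT and switch on genes of glucose uptake, glycolysis, acid export and blood vessel growth through short DNA elements. The HIF1A subunit is controlled mostly through the stability and synthesis of its protein, which RNA sequencing does not measure.

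The core of the DNA element that HIF binds reads ACGTG or GCGTG. RefSeq promoters (250 bases before to 50 after an annotated start, GRCh38.p14) were matched for 33 of the 37 members, with 63 promoters among them, since a gene may have several starts. BNIP3L, NDRG1, SLC2A3 and VEGFA were not matched. ACGTG on either strand (read as CACGT on the other) stood in 24 of the 63 member promoters (38.1%), against 21.4% of all 35114 promoters, and GCGTG (or CACGC) stood in 26 (41.3%) against 36.5%. At least 1 of these cores stood in 66.7% of member promoters and in 48.4% of all promoters. The member promoters also held more G and C (a median of 68.7%, against 58.7% of all) and more CG steps (a median of 28, against 14), and both cores contain a CG step; the part of base composition in these shares was not tested. These counts describe the letters in the window and no binding was measured.

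The 5 stretches printed below are from 3 members whose RNA rose with ginger and whose promoter holds the ACGTG core, and EGLN3 and CA12. Both of the latter rose as well but have no ACGTG in the stretch. CA12 holds the other core there, read as CACGC and left in lower case, 234 bases before the start. EGLN3 has neither core. Each runs 5′ to 3′ over the 250 bases before the start on the gene's own strand, with ACGTG or CACGT in capitals; of several starts, the one with most cores is given.
CA9: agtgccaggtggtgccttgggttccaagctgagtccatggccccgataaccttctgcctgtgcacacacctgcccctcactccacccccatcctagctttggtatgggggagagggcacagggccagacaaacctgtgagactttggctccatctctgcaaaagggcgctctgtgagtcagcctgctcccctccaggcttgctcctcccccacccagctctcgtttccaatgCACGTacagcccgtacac
ANKRD37: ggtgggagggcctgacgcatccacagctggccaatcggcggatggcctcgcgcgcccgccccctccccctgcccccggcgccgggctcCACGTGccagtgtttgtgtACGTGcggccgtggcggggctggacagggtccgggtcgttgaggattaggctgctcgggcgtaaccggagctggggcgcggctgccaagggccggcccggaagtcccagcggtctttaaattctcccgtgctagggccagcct
LDHA: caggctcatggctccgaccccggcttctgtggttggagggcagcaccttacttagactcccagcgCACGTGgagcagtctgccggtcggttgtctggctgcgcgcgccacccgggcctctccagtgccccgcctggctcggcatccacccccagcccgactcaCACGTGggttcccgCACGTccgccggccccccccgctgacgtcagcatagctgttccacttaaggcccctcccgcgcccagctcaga
EGLN3: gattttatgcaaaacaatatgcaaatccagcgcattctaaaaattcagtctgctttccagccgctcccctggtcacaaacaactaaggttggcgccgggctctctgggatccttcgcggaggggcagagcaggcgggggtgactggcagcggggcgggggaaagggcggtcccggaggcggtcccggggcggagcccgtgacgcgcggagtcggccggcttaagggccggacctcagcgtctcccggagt
CA12: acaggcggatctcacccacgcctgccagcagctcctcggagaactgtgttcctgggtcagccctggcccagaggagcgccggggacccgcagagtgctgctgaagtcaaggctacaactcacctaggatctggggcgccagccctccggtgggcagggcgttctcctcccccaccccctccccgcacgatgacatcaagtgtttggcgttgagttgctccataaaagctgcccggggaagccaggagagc
The stretches lie at chr9:35673678-35673927 on the plus strand (CA9), chr4:185396591-185396840 plus (ANKRD37), chr11:18394313-18394562 plus (LDHA), chr14:33951075-33951324 minus (EGLN3) and chr15:63381847-63382096 minus (CA12). The capital stretch of CA9 begins 18 bases before the start. ANKRD37 has overlapping matches at 162 and 161 bases, which together read CACGTG, and another at 143. LDHA has them at 185 and 184, at 87 and 86, and at 73 bases before the start.

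Libraries held 21582603 to 31392069 counts (median 25834162). Levels below are in CPM, edgeR's counts scaled by library size with TMM factors, and changes are log2 changes with their standard error (SE) from edgeR's quasi-likelihood test over all 16641 genes, with Benjamini-Hochberg adjusted p-values and a threshold of 0.05. Reads of GAPDH, PGK1, ENO1, LDHA, TPI1, PKM and PGAM1, which have near-identical pseudogenes, and of SLC2A3, which closely resembles SLC2A14, may be shared between copies by the authors' counting, so their levels are uncertain to that extent. All 8 liver markers, albumin among them, were detected in every library, whereas of 9 markers of other cell types PTPRC (blood) and DCN (fibroblasts) were at 0 in 58 of 59 libraries, COL3A1 was at 0 in 22, and the other 6 were detected in every library. LYZ lay at 1005 to 2666 CPM, CD68 at 25.3 to 86.5, ACTA2 at 30.8 to 85.2, and PECAM1, VWF and COL1A1 at or below 4.51 CPM. The summed liver markers lay at 34499 to 35564 CPM with fresh ginger 500 ug/mL, 32818 to 37440 with dried ginger 500, 27077 to 27904 with Scutellariae Radix 500, 22885 to 23928 with Coptidis Rhizoma 210 and 45649 to 46760 with wortmannin, against 40183 to 40807 CPM with vehicle. The summed markers of other cell types, mostly LYZ, lay at 2493 to 2734 CPM with fresh ginger 500, 2692 to 2742 with dried ginger 500, 1874 to 2056 with Scutellariae Radix 500, 1147 to 1232 with Coptidis Rhizoma 210 and 1823 to 1921 with wortmannin, against 1452 to 1464 CPM with vehicle. Their part in the results was not tested, and in bulk samples fewer cells of a type cannot be told apart from less RNA per cell. Of the 59 libraries, 3 stood apart from their replicates: dried ginger 500 replicate 1, Pinelliae Tuber 100 replicate 3 and Zizyphi Fructus 20 replicate 1.

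**Figure D1:**
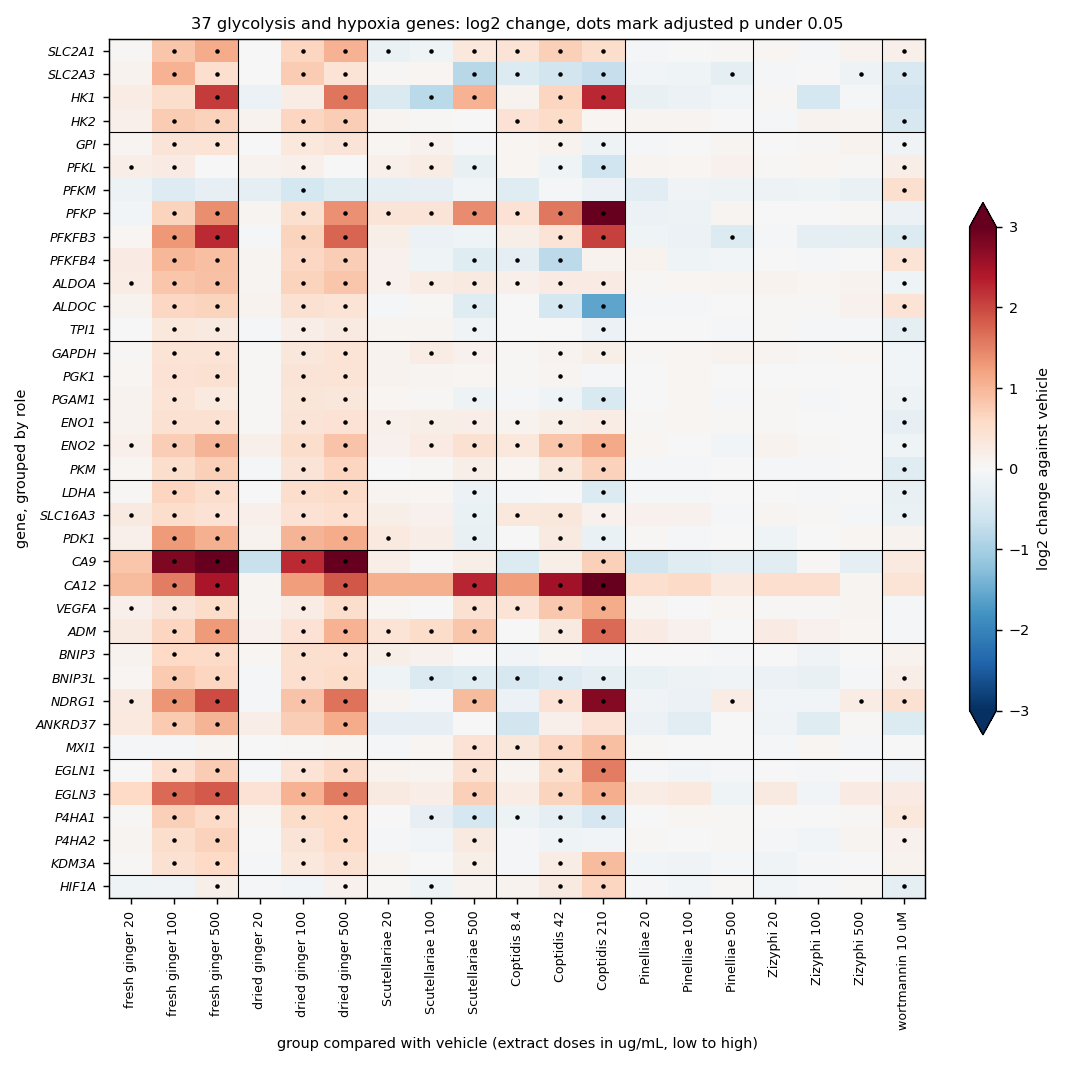
Log2 change against vehicle (colour) of each of the 37 members (rows, grouped by role) in the 19 treated groups (columns), with a dot where edgeR's adjusted p was under 0.05. The fresh and dried ginger columns at 100 and 500 ug/mL are red for nearly every member, whereas those of Scutellariae Radix and Coptidis Rhizoma hold both colours and those of Pinelliae Tuber and Zizyphi Fructus are close to white.

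With fresh ginger at 500 ug/mL nearly the whole module was higher. Of the 37 members, 34 rose, none fell and 3 did not pass the test, where 46.0% of all tested genes were called, 23.5% higher and 22.5% lower. The median log2 change was 0.66 over the members and 0.00 over all genes tested. The 3 that were not called were the phosphofructokinase subunits PFKL (-0.02) and PFKM (-0.26) and the MYC antagonist MXI1 (0.08). In each of the 34 that rose, all 3 treated libraries lay above all 3 vehicle libraries. The share of all tested genes separated in this way was not counted.

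Glucose entry and trapping rose in 4 of 4 genes. HK1, a hexokinase that traps glucose in the cell as its phosphate, had 4.51, 4.51 and 4.59 CPM with fresh ginger 500, against 1.08, 0.874 and 1.24 CPM with vehicle, a log2 change of 2.09 (SE 0.18, adjusted p = 7.1e-15). Its level was low in every library, with 28, 23 and 31 counts in the vehicle libraries. The glucose transporter SLC2A1 had 1133, 1181 and 1158 CPM, against 543, 516 and 554 CPM with vehicle, a log2 change of 1.11 (SE 0.03, adjusted p = 1.08e-30). The hexokinase HK2 and the transporter SLC2A3 changed by 0.69 and 0.50.

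Upper glycolysis rose in 7 of 9 genes, with the largest changes in PFKFB3 and PFKP. PFKFB3, which makes the sugar bisphosphate that activates phosphofructokinase, had 25.4, 30.7 and 27.2 CPM, against 5.32, 6.34 and 5.89 CPM with vehicle, a log2 change of 2.25 (SE 0.10, adjusted p = 7.75e-26). PFKP, the platelet-type phosphofructokinase, had 11.8, 12.2 and 12.0 CPM, against 4.20, 4.98 and 4.49 CPM with vehicle, a log2 change of 1.40 (SE 0.09, adjusted p = 2.38e-18). The other phosphofructokinase genes did not follow PFKP: PFKL, the liver-type subunit, had 129.9, 139.7 and 142 CPM with fresh ginger 500, overlapping with its vehicle values of 135, 137 and 144 CPM. PFKL also had by far the highest level of these genes, with vehicle means of 138.6 CPM for PFKL, 4.55 for PFKP and 1.86 for PFKM. The aldolases ALDOA (0.88) and ALDOC (0.66), the isomerases GPI (0.41) and TPI1 (0.26) and the PFKFB3 relative PFKFB4 (0.90) all rose.

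Lower glycolysis rose in 6 of 6 genes, mostly by less. ENO2, an enolase, had 88.9, 86.6 and 88.5 CPM, against 44.2, 43.2 and 43.1 CPM with vehicle, a log2 change of 1.02 (SE 0.04, adjusted p = 2.31e-26). GAPDH, the dehydrogenase of this stage, changed by 0.41, PGAM1, the mutase, by 0.29, the enolase ENO1 by 0.46 and phosphoglycerate kinase PGK1 by 0.47. Pyruvate kinase PKM changed by 0.72.

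All 3 genes that steer pyruvate rose. LDHA, which turns pyruvate into lactate, had 1554, 1518 and 1549 CPM, against 1066, 1033 and 1087 CPM with vehicle, a log2 change of 0.54 (SE 0.04, adjusted p = 1.8e-17). PDK1, a kinase that shuts pyruvate out of mitochondrial oxidation, had 51.6, 48.9 and 48.3 CPM, against 23.1, 22.2 and 26.1 CPM with vehicle, a log2 change of 1.06 (SE 0.07, adjusted p = 5.26e-18). The treated libraries of both genes lay well clear of the vehicle libraries. The lactate exporter SLC16A3 changed by 0.44.

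The largest change of the module was in CA9, a carbonic anhydrase at the cell surface that is a classic HIF target. It had 5.16, 6.11 and 5.98 CPM, against 0.424, 0.570 and 0.801 CPM with vehicle, a log2 change of 3.26 (SE 0.24, adjusted p = 2.55e-18). Its vehicle libraries held only 11, 15 and 20 counts, so the size of the change is less sure than its direction. CA12, a related surface enzyme, had 1.09, 1.11 and 0.828 CPM, against 0.193, 0.228 and 0.120 CPM with vehicle, a log2 change of 2.44 (SE 0.48, adjusted p = 4.54e-06), resting on 5, 6 and 3 counts in the vehicle libraries. ADM, which encodes the vasodilating peptide adrenomedullin, had 12.1, 14.2 and 13.7 CPM, against 4.90, 5.66 and 5.97 CPM with vehicle, a log2 change of 1.27 (SE 0.09, adjusted p = 3.72e-17), and the vessel growth factor VEGFA changed by 0.56.

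Of the mitophagy genes and other targets, NDRG1, a stress-responsive HIF target, moved most. It had 126, 129 and 125 CPM, against 31.4, 29.8 and 36.9 CPM with vehicle, a log2 change of 1.95 (SE 0.06, adjusted p = 2.97e-31). The mitophagy receptors BNIP3 (0.56) and BNIP3L (0.65) and ANKRD37 (1.02) rose, and MXI1 did not pass. All 5 dioxygenases rose. EGLN3, a HIF prolyl hydroxylase that HIF itself induces, had 2.98, 2.52 and 2.26 CPM, against 0.694, 0.760 and 0.681 CPM with vehicle, a log2 change of 1.85 (SE 0.21, adjusted p = 8.04e-11). The main HIF hydroxylase EGLN1 changed by 0.77, the collagen hydroxylases P4HA1 and P4HA2 by 0.58 and 0.69, and the histone demethylase KDM3A by 0.60. HIF1A itself rose by less, with 284, 277 and 279 CPM, against 248, 244 and 249 CPM with vehicle, a log2 change of 0.18 (SE 0.04, adjusted p = 0.000574). No call of a gene named with values per library at this dose was lost when any 1 library was left out.

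**Figure D2:**
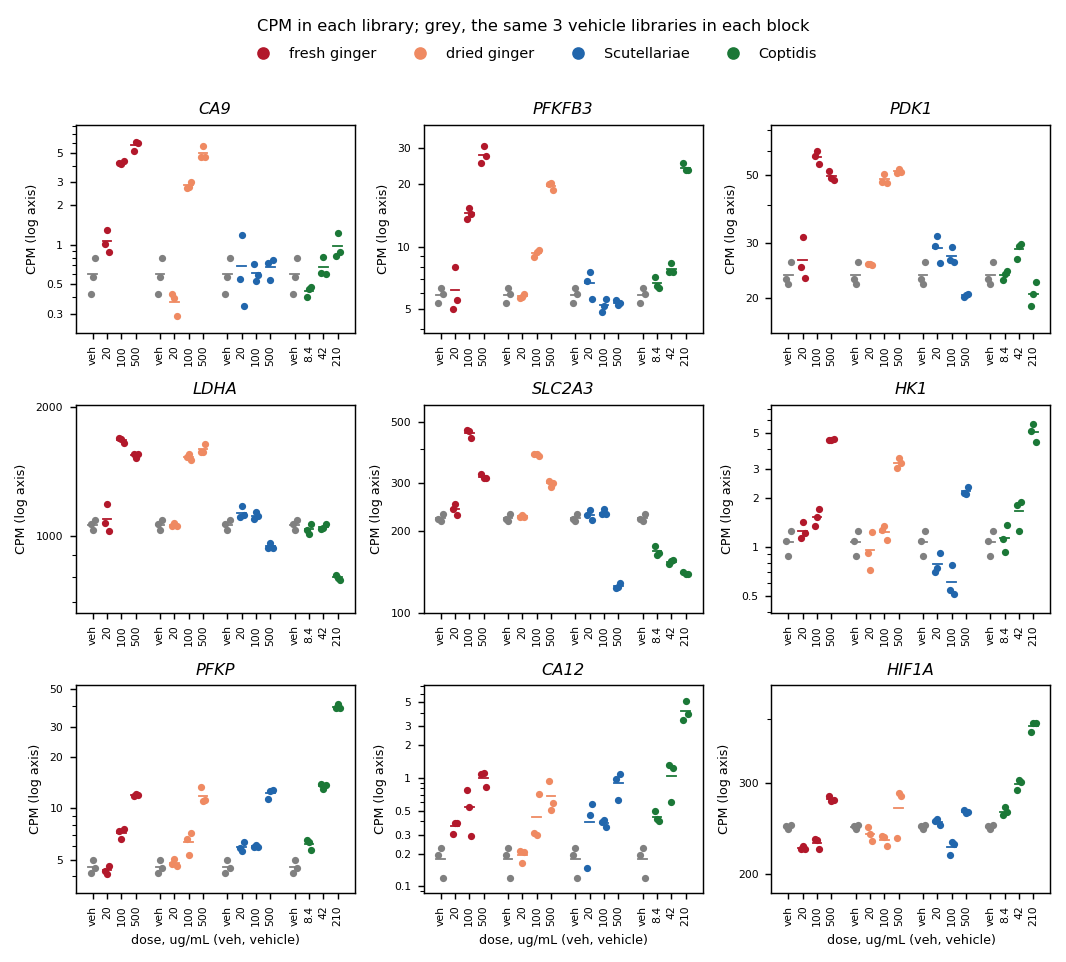
Level in CPM (log axis) of 9 members in each library of fresh ginger, dried ginger, Scutellariae Radix and Coptidis Rhizoma by dose, with vehicle at the low end; each point is 1 library. With fresh ginger 500 ug/mL the CA9 points sit between 5.16 and 6.11 CPM and with vehicle between 0.424 and 0.801 CPM, while the HIF1A points of both gingers stay close to vehicle at every dose.

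At 100 ug/mL of fresh ginger, 33 members rose and none fell, where 22.2% of all tested genes were called, 12.1% higher and 10.2% lower. The members' median log2 change was 0.63, close to that at 500 ug/mL. CA9 had 4.21, 4.10 and 4.31 CPM, against 0.424, 0.570 and 0.801 CPM with vehicle, a log2 change of 2.81 (SE 0.25, adjusted p = 8.86e-15). EGLN3 had 2.13, 2.49 and 2.34 CPM, against 0.694, 0.760 and 0.681 CPM with vehicle, a log2 change of 1.70 (SE 0.22, adjusted p = 4.68e-09). NDRG1 had 79.3, 87.1 and 77.3 CPM, against 31.4, 29.8 and 36.9 CPM with vehicle, a log2 change of 1.31 (SE 0.06, adjusted p = 2.69e-23). In all 3 genes every treated library was above every vehicle library. CA12 had 0.777, 0.539 and 0.293 CPM and a log2 change of 1.54 (SE 0.51, adjusted p = 0.014), and it was no longer called without vehicle replicate 3 (adjusted p = 0.0716) or without fresh ginger 100 replicate 1 (adjusted p = 0.132). The 4 members that were not called were HK1 (0.53), PFKM (-0.40), MXI1 (-0.05) and HIF1A (-0.10).

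The doses differed in which members they moved most. Set directly against 100 ug/mL, 500 ug/mL of fresh ginger gave 14 higher and 5 lower members. Of all genes, 26.5% were called, 13.7% higher and 12.7% lower, so the share of lower members was close to that of all genes. HK1 (1.56), PFKFB3 (0.94), PFKP (0.73), NDRG1 (0.64) and ADM (0.63) were still higher at the larger dose. SLC2A3 went the other way: it had 322, 313 and 313 CPM at 500 ug/mL, against 471, 463 and 439.7 CPM at 100 ug/mL, a log2 change of -0.53 (SE 0.03, adjusted p = 1.18e-17), with no overlap between the doses. PFKL (-0.26), PDK1 (-0.21), P4HA1 (-0.14) and LDHA (-0.12) were the other lower members. Of these, PDK1 lost the call without replicate 2 at 100 ug/mL (adjusted p = 0.0722) or replicate 3 at 500 ug/mL (0.0563), P4HA1 without replicate 2 at 100 ug/mL (0.0584) or replicate 1 at 500 ug/mL (0.0527), and LDHA without replicate 2 at 500 ug/mL (0.0527). CA9, at 0.45, was called as higher, but not by DESeq2 (adjusted p = 0.0577) or without any 1 of 5 of the 6 libraries. Dried ginger gave 16 higher and 2 lower members in the same comparison, where 23.7% of all genes were called, 12.1% higher and 11.5% lower. The 2 lower members were SLC2A3 (-0.35) and PFKL (-0.15).

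At 20 ug/mL of fresh ginger, 6 members rose and none fell, where 5.10% of all genes were called, 2.75% higher and 2.35% lower. The all-gene count of 849 behind that share lay between 70 and 991 when 1 library was left out, lowest without fresh ginger 20 replicate 3. A fit without the 3 libraries that stood apart, none of them in these groups, called 10 members higher and 1 lower. NDRG1 had 37.1, 42.9 and 38.6 CPM, against 31.4, 29.8 and 36.9 CPM with vehicle, a log2 change of 0.27 (SE 0.06, adjusted p = 0.0101). SLC16A3 had 440.4, 459 and 463 CPM, against 365, 372 and 391 CPM with vehicle, a log2 change of 0.27 (SE 0.06, adjusted p = 0.0052). ALDOA had 1089.6, 1159 and 1133 CPM, against 953, 945.3 and 1019 CPM with vehicle, a log2 change of 0.21 (SE 0.03, adjusted p = 0.000237). Treated and vehicle libraries did not overlap in these 3 genes, and among them ALDOA alone kept its call without any 1 library. PFKL (0.20), VEGFA (0.16) and ENO2 (0.15) were the others. The count of 6 came to 1 without vehicle replicate 1, to 2 without vehicle replicate 2 or fresh ginger 20 replicate 3, and to 3 without fresh ginger 20 replicate 2. The member left without vehicle replicate 1 was ALDOA, so VEGFA and ENO2 were lost there too. NDRG1 was lost without vehicle replicate 1 (adjusted p = 0.0704), vehicle replicate 2 (0.103) or its own replicate 2 (0.057), SLC16A3 without vehicle replicate 1 (0.0512) or its own replicate 3 (0.0622), and PFKL without vehicle replicate 1 (0.0668), vehicle replicate 2 (0.0514) or its own replicate 3 (0.143).

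Against 20 ug/mL instead of vehicle, which keeps the comparison within 1 extract, fresh ginger at 500 ug/mL gave 34 higher members and 1 lower. Of all genes, 48.1% were called, 24.4% higher and 23.6% lower. CA9 had 5.16, 6.11 and 5.98 CPM at 500 ug/mL, against 1.02, 1.31 and 0.875 CPM at 20 ug/mL, a log2 change of 2.43 (SE 0.20, adjusted p = 1.82e-15). PFKFB3 had 25.4, 30.7 and 27.2 CPM, against 5.01, 7.95 and 5.56 CPM, a log2 change of 2.18 (SE 0.10, adjusted p = 1.58e-25). The doses did not overlap in either gene. PFKL was the lower member, with 129.9, 139.7 and 142 CPM at 500 ug/mL, against 148, 162 and 167 CPM at 20 ug/mL, a log2 change of -0.21 (SE 0.05, adjusted p = 0.000118).

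With dried ginger at 500 ug/mL, 34 members rose and none fell, where 42.4% of all tested genes were called, 21.5% higher and 20.9% lower. The members' median log2 change was 0.59. PFKL (0.01), PFKM (-0.36) and MXI1 (0.08) were not called. CA9 had 4.67, 5.68 and 4.67 CPM, against 0.424, 0.570 and 0.801 CPM with vehicle, a log2 change of 3.06 (SE 0.24, adjusted p = 4.5e-17). PFKFB3 had 20.1, 20.2 and 18.7 CPM, against 5.32, 6.34 and 5.89 CPM with vehicle, a log2 change of 1.75 (SE 0.10, adjusted p = 5.2e-21). NDRG1 had 109.6, 97.7 and 98.0 CPM, against 31.4, 29.8 and 36.9 CPM with vehicle, a log2 change of 1.64 (SE 0.06, adjusted p = 6.5e-28). Every treated library of these genes was above every vehicle library, as it was for PDK1, which had 50.8, 52.4 and 51.1 CPM, against 23.1, 22.2 and 26.1 CPM with vehicle, a log2 change of 1.11 (SE 0.07, adjusted p = 8.33e-19). CA12 had 0.935, 0.509 and 0.588 CPM and changed by 1.86 (SE 0.50, adjusted p = 0.000694). HK1 changed by 1.62 (SE 0.18, adjusted p = 7.85e-11), EGLN3 by 1.56 (SE 0.22, adjusted p = 1.33e-08) and PFKP by 1.38 (SE 0.09, adjusted p = 4e-18). These calls were made with and without replicate 1 of this group, the library that stood apart: without it the count was again 34. HIF1A had 235, 287 and 283 CPM, against 248, 244 and 249 CPM with vehicle; replicate 1 lay below the vehicle libraries and the others above, and its log2 change of 0.12 (SE 0.04, adjusted p = 0.0223) was no longer called without replicate 2 (adjusted p = 0.256), replicate 3 (0.183), vehicle replicate 1 (0.0508) or vehicle replicate 2 (0.0806).

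At 100 ug/mL of dried ginger, 31 members rose and 1 fell, where 17.5% of all tested genes were called, 9.76% higher and 7.75% lower. CA9 had 2.72, 2.76 and 3.03 CPM, against 0.424, 0.570 and 0.801 CPM with vehicle, a log2 change of 2.24 (SE 0.25, adjusted p = 7.5e-11). EGLN3 had 1.32, 1.60 and 1.45 CPM, against 0.694, 0.760 and 0.681 CPM with vehicle, a log2 change of 1.03 (SE 0.23, adjusted p = 0.000382). PDK1 had 47.6, 50.5 and 47.4 CPM and changed by 1.03 (SE 0.07, adjusted p = 1.23e-16), and NDRG1 had 59.5, 59.04 and 59.8 CPM and changed by 0.86 (SE 0.06, adjusted p = 7.24e-16). All of these libraries were above the vehicle libraries. PFKM, the muscle-type phosphofructokinase subunit, was the member that fell, with 0.966, 1.38 and 1.45 CPM, against 1.77, 1.71 and 2.08 CPM with vehicle, a log2 change of -0.54 (SE 0.17, adjusted p = 0.0306); the call was lost with DESeq2 (adjusted p = 0.0811), without vehicle replicate 3 (0.151) and without its own replicate 1 (0.217). At 20 ug/mL of dried ginger, edgeR called 0 of 37 members, where 0.0841% of all genes were called, 0.0240% higher and 0.0601% lower. DESeq2 also called 0. An unadjusted p under 0.05 was found in 6 members, and the share of all genes under that threshold was not counted. Set against 20 ug/mL, 500 ug/mL of dried ginger gave 34 higher and no lower members, where 41.0% of all genes were called, 20.9% higher and 20.1% lower.

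Fresh and dried ginger were then compared at the same dose. At 20 ug/mL, CA9 had 1.02, 1.31 and 0.875 CPM with fresh ginger, against 0.425, 0.392 and 0.288 CPM with dried ginger, a log2 difference of 1.504 (SE 0.31, adjusted p = 0.0287), and NDRG1 differed by 0.32 (SE 0.06, adjusted p = 0.0287). Those were the 2 members called, where 0.0481% of all genes were. The count came to 0 without any 1 dried ginger library or without fresh ginger replicate 2, and to 1 without fresh ginger replicate 1 or 3.

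At 100 ug/mL, 9 members were higher with fresh ginger and none lower, where 0.379% of all genes were called, 0.324% higher and 0.0541% lower. PFKFB3 had 13.7, 15.4 and 14.4 CPM with fresh ginger, against 8.87, 9.40 and 9.59 CPM with dried ginger, a log2 difference of 0.64 (SE 0.09, adjusted p = 2.73e-05). NDRG1 had 79.3, 87.1 and 77.3 CPM with fresh ginger, against 59.5, 59.04 and 59.8 CPM with dried ginger, a log2 difference of 0.45 (SE 0.06, adjusted p = 2.27e-06). SLC2A3 had 471, 463 and 439.7 CPM with fresh ginger, against 384, 381 and 378 CPM with dried ginger, a log2 difference of 0.27 (SE 0.03, adjusted p = 2.51e-06). The extracts did not overlap in any of these. PFKFB4 (0.37), BNIP3L (0.27), ENO2 (0.20), SLC2A1 (0.19), PKM (0.15) and ALDOA (0.15) were the others, and each of these except SLC2A1 lost the call without at least 1 library. The count of 9 came to 5 without dried ginger 100 replicate 1 or 2 or fresh ginger 100 replicate 2 or 3. The largest difference that did not pass was that of EGLN3, at 0.66 (SE 0.19, adjusted p = 0.118).

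At 500 ug/mL, 3 members were higher with fresh ginger and none lower, where 1.83% of all genes were called, 0.961% higher and 0.871% lower. PFKFB3 had 25.4, 30.7 and 27.2 CPM with fresh ginger, against 20.1, 20.2 and 18.7 CPM with dried ginger, a log2 difference of 0.50 (SE 0.08, adjusted p = 0.000126). NDRG1 differed by 0.32 (SE 0.05, adjusted p = 0.000243). ENO2 differed by 0.17 (SE 0.04, adjusted p = 0.0104), and its call was lost without replicate 1 of dried ginger, which stood apart (adjusted p = 0.0725), and without replicate 1 (0.0513) or 3 (0.0753) of fresh ginger. The remaining 34 members did not pass, CA9 among them with a log2 difference of 0.20 (SE 0.16, adjusted p = 0.664).

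**Figure D3:**
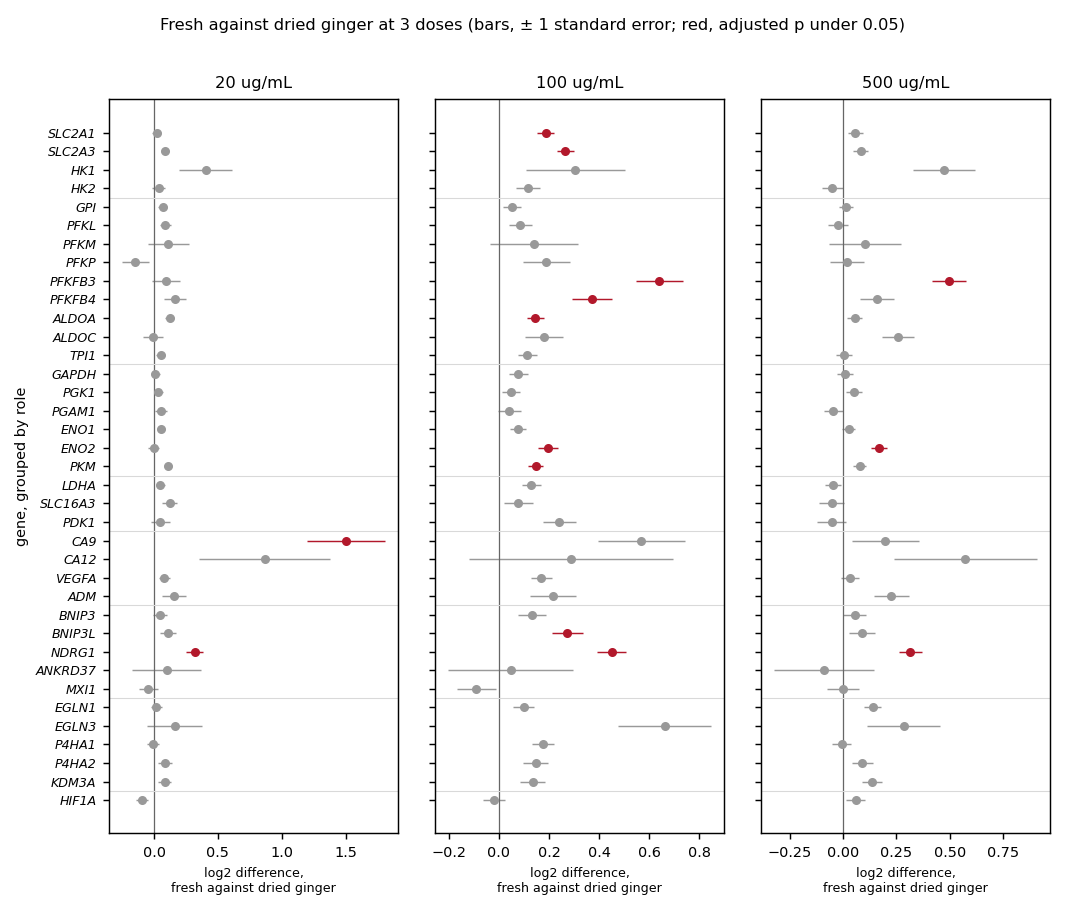
Log2 difference of fresh against dried ginger (points, bars ±1 SE) for each of the 37 members at 20, 100 and 500 ug/mL, with called members in red. There are 2 red members at 20 ug/mL, 9 at 100 ug/mL and 3 at 500 ug/mL, all to the right of 0.

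Scutellariae Radix at 500 ug/mL moved members in both directions. Of the 37 members, 17 rose and 11 fell, where 50.2% of all tested genes were called, 24.7% higher and 25.5% lower. The share of members that fell was thus close to that of all genes. The members' median log2 change was 0.10. CA12 had 0.971, 0.620 and 1.09 CPM, against 0.193, 0.228 and 0.120 CPM with vehicle, a log2 change of 2.27 (SE 0.49, adjusted p = 1.65e-05). PFKP had 11.3, 12.6 and 12.9 CPM, against 4.20, 4.98 and 4.49 CPM with vehicle, a log2 change of 1.43 (SE 0.09, adjusted p = 6.58e-19). HK1 had 2.14, 2.11 and 2.34 CPM, against 1.08, 0.874 and 1.24 CPM with vehicle, a log2 change of 1.04 (SE 0.19, adjusted p = 5.72e-06). These libraries all lay above vehicle. NDRG1, with 60.4, 62.0 and 66.5 CPM, changed by 0.95 (SE 0.06, adjusted p = 2.1e-18), and ADM, with 9.79, 9.46 and 10.1 CPM, by 0.83 (SE 0.09, adjusted p = 9.84e-11). EGLN3, with 1.05, 1.12 and 1.37 CPM, changed by 0.72 (SE 0.23, adjusted p = 0.0074), a call lost without its replicate 3 (adjusted p = 0.063).

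The members that fell with Scutellariae Radix came from 6 of the 8 roles. SLC2A3, which encodes a high-affinity glucose transporter, had 123, 124 and 128 CPM, against 221, 218 and 231 CPM with vehicle, a log2 change of -0.84 (SE 0.04, adjusted p = 1.68e-25). P4HA1, the catalytic subunit of collagen prolyl hydroxylase, had 47.7, 48.6 and 51.5 CPM, against 68.1, 69.6 and 73.9 CPM with vehicle, a log2 change of -0.52 (SE 0.05, adjusted p = 2.76e-13). The groups did not overlap in either gene. The other members that fell were BNIP3L (-0.37), ALDOC (-0.37), PFKFB4 (-0.37), PFKL (-0.22), PDK1 (-0.22), SLC16A3 (-0.19), LDHA (-0.17), PGAM1 (-0.15) and TPI1 (-0.09). All 3 genes of pyruvate and lactate handling were thus lower. PDK1 was no longer called without vehicle replicate 3 (adjusted p = 0.139), and TPI1 without any 1 of the 6 libraries (adjusted p between 0.0537 and 0.102). CA9, at 0.728, 0.537 and 0.765 CPM, overlapped with vehicle and did not pass (0.18, SE 0.30, adjusted p = 0.64), and neither did PFKFB3 (-0.12, SE 0.11, adjusted p = 0.39).

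Lower doses of Scutellariae Radix moved fewer members. At 100 ug/mL, 8 rose and 5 fell, where 14.6% of all genes were called, 7.27% higher and 7.34% lower. ADM had 8.05, 7.87 and 8.197 CPM, against 4.90, 5.66 and 5.97 CPM with vehicle, a log2 change of 0.55 (SE 0.10, adjusted p = 2.15e-05). PFKP changed by 0.39 (SE 0.10, adjusted p = 0.00383). BNIP3L had 20.6, 20.3 and 19.8 CPM, against 25.2, 26.1 and 30.0 CPM with vehicle, a log2 change of -0.42 (SE 0.07, adjusted p = 5.88e-06). HK1 was lower at this dose and higher at 500 ug/mL: it had 0.539, 0.771 and 0.510 CPM, against 1.08, 0.874 and 1.24 CPM with vehicle, a log2 change of -0.81 (SE 0.24, adjusted p = 0.0157), which was not called without its own replicate 1 (adjusted p = 0.0855) or 3 (0.0903) or vehicle replicate 3 (0.107). P4HA1 (-0.25), HIF1A (-0.13) and SLC2A1 (-0.12) were the other lower members. HIF1A lost its call without any 1 of 5 libraries (adjusted p between 0.0525 and 0.178), and SLC2A1 without its own replicate 1 (0.0735) or vehicle replicate 3 (0.0839). At 20 ug/mL, 7 members rose and SLC2A1 fell (-0.21, SE 0.04, adjusted p = 3.87e-05), where 4.74% of all genes were called, 2.57% higher and 2.17% lower. ADM changed by 0.41 (SE 0.10, adjusted p = 0.00466), not called without vehicle replicate 1 (adjusted p = 0.0797). PFKP changed by 0.38 (SE 0.10, adjusted p = 0.0146), not called without its own replicate 3 (0.0955) or vehicle replicate 1 (0.117) or 3 (0.0592). PDK1 changed by 0.29 (SE 0.07, adjusted p = 0.0119), not called without its own replicate 1 (0.0631) or 2 (0.127) or vehicle replicate 1 (0.0755) or 2 (0.111). The count of 8 came to 2 without vehicle replicate 1, to 4 without vehicle replicate 2 or its own replicate 1, and to 5 without its own replicate 2 or 3.

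Within Scutellariae Radix, 500 against 20 ug/mL gave 13 higher and 14 lower members, where 49.9% of all genes were called, 24.5% higher and 25.4% lower. The same step of dose in fresh ginger gave 34 higher and 1 lower, and the difference between both steps was tested directly in 1 model. This difference passed in 31 of the 37 members: it was negative, toward lower with Scutellariae Radix, in 30, and positive in 1, where 28.4% of all genes were called, 16.5% negative and 11.9% positive. The members' median difference was -0.49. In 13 of the 31, the dose step was called as lower for Scutellariae Radix and as higher for fresh ginger. How many of all tested genes had this pattern was not counted.

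PFKFB3 differed most. It had 5.50, 5.25 and 5.36 CPM with Scutellariae Radix 500, against 6.83, 7.56 and 5.58 CPM at 20 ug/mL, while fresh ginger gave 25.4, 30.7 and 27.2 CPM at 500, against 5.01, 7.95 and 5.56 CPM at 20 ug/mL. The difference of these log2 changes was -2.48 (SE 0.15, adjusted p = 7.48e-19). The step within Scutellariae Radix was -0.31 in this gene, not called without replicate 1 (adjusted p = 0.0619) or 2 (0.165) at 20 ug/mL or replicate 2 at 500 ug/mL (0.0592). CA9 had 0.728, 0.537 and 0.765 CPM with Scutellariae Radix 500 and 0.550, 1.19 and 0.342 CPM at 20 ug/mL, which overlap, and its difference was -2.44 (SE 0.35, adjusted p = 3.5e-07). PDK1 had 20.1, 20.5 and 20.6 CPM with Scutellariae Radix 500, against 29.5, 31.8 and 25.8 CPM at 20 ug/mL, with no overlap, and its difference was -1.41 (SE 0.10, adjusted p = 1.5e-15). SLC2A3 (-1.27, SE 0.05, adjusted p = 3.62e-25), PFKFB4 (-1.16, SE 0.12, adjusted p = 2.64e-10) and P4HA1 (-1.06, SE 0.07, adjusted p = 5.43e-18) followed. MXI1, whose protein opposes MYC, was the positive one: it had 11.4, 13.3 and 11.9 CPM with Scutellariae Radix 500, against 9.03, 8.21 and 8.73 CPM at 20 ug/mL, and its difference was 0.36 (SE 0.11, adjusted p = 0.00728). The 6 members whose difference did not pass were HK1 (-0.37), PFKL (-0.16), PFKM (0.28), CA12 (-0.28), VEGFA (-0.01) and ANKRD37 (-0.49).

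**Figure D4:**
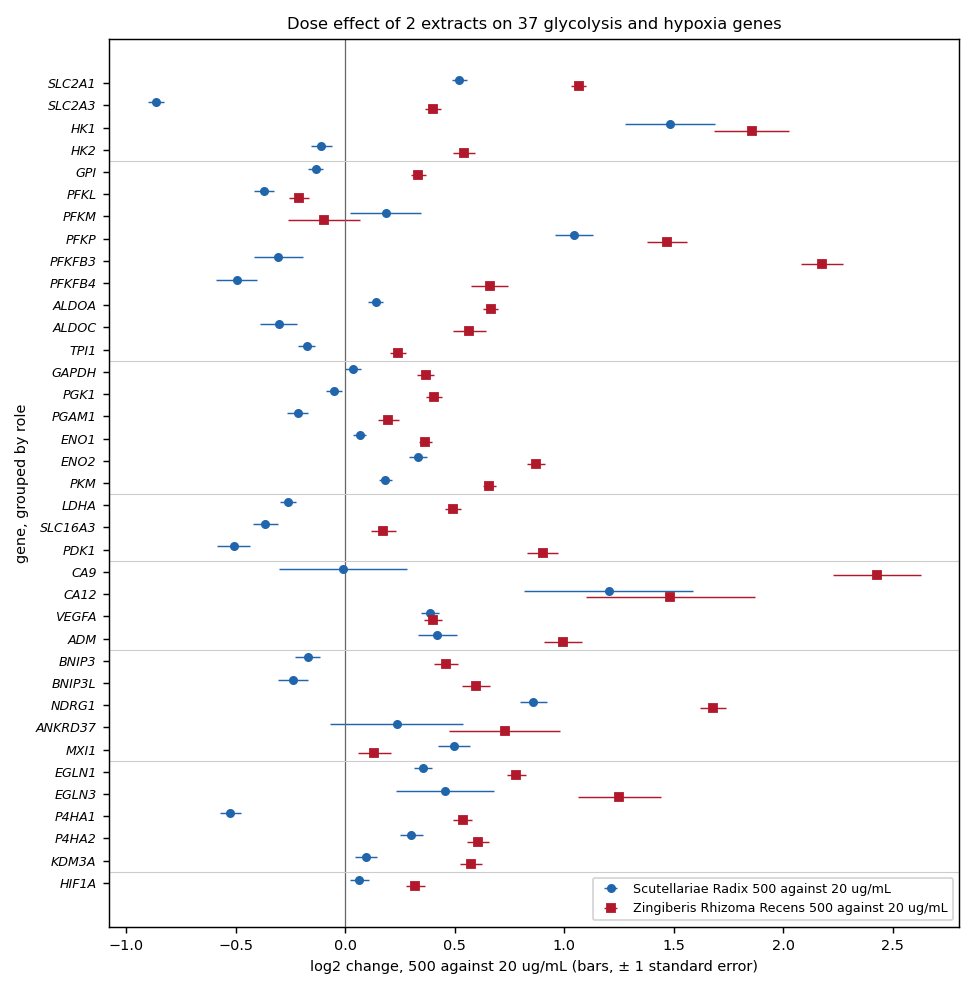
Log2 change of 500 against 20 ug/mL (points, bars ±1 SE) in each of the 37 members for Scutellariae Radix and for fresh ginger. For PFKFB3 the points lie at -0.31 and 2.18, for PDK1 at -0.51 and 0.90, and for SLC2A3 at -0.87 and 0.40; for PFKP and HK1 both points lie above 1.

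Coptidis Rhizoma at 210 ug/mL moved 30 members, 20 of them higher and 10 lower. The background was high at this dose, where 69.4% of all genes were called, 34.8% higher and 34.5% lower. CA12 had 3.43, 5.16 and 3.88 CPM, against 0.193, 0.228 and 0.120 CPM with vehicle, a log2 change of 4.48 (SE 0.46, adjusted p = 4.79e-16). PFKP had 38.9, 41.0 and 38.7 CPM, against 4.20, 4.98 and 4.49 CPM with vehicle, a log2 change of 3.12 (SE 0.09, adjusted p = 3.5e-35). NDRG1 had 218, 225 and 217 CPM, against 31.4, 29.8 and 36.9 CPM with vehicle, a log2 change of 2.75 (SE 0.06, adjusted p = 7.16e-39). In these genes every treated library was several times above every vehicle library. HK1 with 5.16, 5.72 and 4.41 CPM changed by 2.26 (SE 0.18, adjusted p = 6.23e-17), PFKFB3 with 25.3, 23.5 and 23.3 CPM by 2.04 (SE 0.10, adjusted p = 6.97e-25), and ADM with 17.7, 18.96 and 16.9 CPM by 1.70 (SE 0.09, adjusted p = 3e-23). EGLN1, the main oxygen-sensing hydroxylase of HIF, had 189.9, 188 and 188 CPM, against 63.4, 65.1 and 66.4 CPM with vehicle, a log2 change of 1.54 (SE 0.04, adjusted p = 8.08e-35).

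ALDOC, an aldolase best known from brain, fell furthest with Coptidis Rhizoma 210. It had 5.57, 4.77 and 4.81 CPM, against 14.6, 14.1 and 16.7 CPM with vehicle, a log2 change of -1.58 (SE 0.10, adjusted p = 2.8e-20). SLC2A3 (-0.68), PFKL (-0.59), P4HA1 (-0.50), PGAM1 (-0.45), LDHA (-0.41), BNIP3L (-0.29), PDK1 (-0.21), TPI1 (-0.17) and GPI (-0.15) fell too. LDHA had 811, 798 and 789.6 CPM, against 1066, 1033 and 1087 CPM with vehicle, without overlap. PDK1 was not called without its own replicate 1 (adjusted p = 0.129) or vehicle replicate 3 (0.13). CA9, with 0.829, 1.22 and 0.890 CPM, changed by 0.71 (SE 0.28, adjusted p = 0.0197), and this call was lost without its own replicate 2 (adjusted p = 0.133) or vehicle replicate 1 (0.127) or 2 (0.0539).

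At 42 ug/mL of Coptidis Rhizoma, 23 members rose and 8 fell, where 46.9% of all genes were called, 23.4% higher and 23.5% lower. CA12 with 1.31, 0.605 and 1.25 CPM changed by 2.51 (SE 0.48, adjusted p = 1.86e-06). PFKP with 14.0, 13.1 and 13.7 CPM changed by 1.58 (SE 0.09, adjusted p = 1.28e-20), ENO2 with 76.7, 77.2 and 76.7 CPM by 0.82 (SE 0.04, adjusted p = 1.44e-22), and VEGFA with 152, 158 and 149.5 CPM by 0.80 (SE 0.04, adjusted p = 7.98e-22). All these libraries lay above the vehicle libraries. PFKFB4 (-0.79), SLC2A3 (-0.54), ALDOC (-0.53), BNIP3L (-0.39), P4HA1 (-0.28), PGAM1 (-0.13), P4HA2 (-0.13) and PFKL (-0.12) fell. The call of PFKL was lost without its own replicate 2 (adjusted p = 0.104) or 3 (0.0922) or vehicle replicate 3 (0.122), that of PGAM1 without its own replicate 2 (0.15), and that of P4HA2 without any 1 of its own libraries or vehicle replicate 3 (between 0.0884 and 0.286). At 8.4 ug/mL, 9 members rose and 4 fell, where 16.0% of all genes were called, 8.58% higher and 7.39% lower. BNIP3L had 18.99, 19.7 and 19.4 CPM, against 25.2, 26.1 and 30.0 CPM with vehicle, a log2 change of -0.48 (SE 0.07, adjusted p = 4.93e-07). HK2, with 143, 143 and 141 CPM, changed by 0.44 (SE 0.05, adjusted p = 1.21e-09), PFKP by 0.44 (SE 0.10, adjusted p = 0.00118) and VEGFA by 0.42 (SE 0.04, adjusted p = 1.28e-10). SLC2A3 (-0.41), PFKFB4 (-0.27) and P4HA1 (-0.15) were the other lower members. PFKFB4 lost its call without its own replicate 2 (adjusted p = 0.12) or 3 (0.276) or vehicle replicate 2 (0.0507) or 3 (0.333), and P4HA1 without its own replicate 1 (0.103) or 2 (0.0902) or vehicle replicate 3 (0.136).

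Within Coptidis Rhizoma, 210 against 8.4 ug/mL gave 22 higher and 12 lower members. Of all genes, 65.8% were called, 33.0% higher and 32.8% lower, so the share of lower members was close to that of all genes. HK2 and PFKFB4 did not change evenly with dose. HK2 had 102, 106 and 106 CPM with vehicle, 143, 143 and 141 CPM at 8.4 ug/mL, 151, 145 and 161 CPM at 42 ug/mL and 107, 103 and 117 CPM at 210 ug/mL, so that the lower doses lay above vehicle and the top dose overlapped with it. PFKFB4 had 10.8, 9.24 and 8.54 CPM at 8.4 ug/mL, 6.34, 7.14 and 6.25 CPM at 42 ug/mL and 12.9, 12.0 and 12.0 CPM at 210 ug/mL, so that the middle dose was the lowest. The step from 8.4 to 210 ug/mL was called in both, as lower in HK2 (-0.38, SE 0.05, adjusted p = 1.68e-09) and as higher in PFKFB4 (0.38, SE 0.09, adjusted p = 0.000387).

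Pinelliae Tuber and Zizyphi Fructus moved few members. At 500 ug/mL of Pinelliae Tuber, 1 rose and 2 fell, where 4.57% of all genes were called, 2.64% higher and 1.93% lower. That all-gene count of 761 lay between 201 without its own replicate 3 and 1163 without its own replicate 2. PFKFB3 had 4.71, 3.97 and 4.43 CPM, against 5.32, 6.34 and 5.89 CPM with vehicle, a log2 change of -0.42 (SE 0.12, adjusted p = 0.0271). SLC2A3 had 185, 179 and 183 CPM, against 221, 218 and 231 CPM with vehicle, a log2 change of -0.29 (SE 0.04, adjusted p = 1.34e-07). NDRG1 had 36.8, 35.2 and 41.9 CPM and changed by 0.22 (SE 0.06, adjusted p = 0.0402). Its libraries overlapped with those of vehicle, whereas PFKFB3 and SLC2A3 did not overlap. PFKFB3 was not called without its own replicate 2 (adjusted p = 0.0797) or 3 (0.102) or vehicle replicate 2 (0.167) or 3 (0.0569), nor NDRG1 without its own replicate 1 (0.0649) or 3 (0.4) or vehicle replicate 1 (0.19) or 2 (0.319). The count of 3 came to 5 without its own replicate 2 and to 1 without its own replicate 3 or vehicle replicate 2. Set against 20 ug/mL, NDRG1 was higher (0.31) and SLC2A3 lower (-0.21), where 1.90% of all genes were called (316 genes, between 64 and 408 with 1 library left out), and NDRG1 was lost without replicate 1 (adjusted p = 0.191) or 3 (0.0888) at 20 ug/mL or replicate 3 at 500 ug/mL (0.15).

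Zizyphi Fructus at 500 ug/mL had 1 higher and 1 lower member, where 3.61% of all genes were called, 2.09% higher and 1.53% lower. That all-gene count of 601 lay between 182 without vehicle replicate 2 and 474 without vehicle replicate 3. NDRG1 had 38.8, 36.8 and 39.2 CPM, against 31.4, 29.8 and 36.9 CPM with vehicle, a log2 change of 0.23 (SE 0.06, adjusted p = 0.0327), and the groups overlapped. SLC2A3 had 194, 204 and 208 CPM, against 221, 218 and 231 CPM with vehicle, a log2 change of -0.14 (SE 0.04, adjusted p = 0.0135), without overlap. NDRG1 was not called without its own replicate 1 (adjusted p = 0.111) or 3 (0.128) or vehicle replicate 1 (0.164) or 2 (0.291), nor SLC2A3 without its own replicate 1 (0.105) or vehicle replicate 3 (0.0742). Against 20 ug/mL, NDRG1 was the member called (0.31, SE 0.06, adjusted p = 0.00165), where 7.22% of all genes were (1201 genes, between 215 and 3322 with 1 library left out). Without replicate 3 of the 20 ug/mL group 6 members were called, in the same fit that called 3322 of all genes. At 20 and 100 ug/mL of both extracts edgeR called 0 members, where the share of all genes called was 0.00601% and 0.204% for Pinelliae Tuber and 1.99% and 0.228% for Zizyphi Fructus. DESeq2 called 1 member in Pinelliae Tuber 100 ug/mL and 0 in the other groups. An unadjusted p under 0.05 was found in 3 and 6 members for Pinelliae Tuber and in 5 and 4 for Zizyphi Fructus. The share of all genes under that unadjusted threshold was not counted, and the shares above are at the adjusted one. Without replicate 3 of Zizyphi Fructus 20 ug/mL, 2 members were called there, in a fit that called 2242 of all genes, against 331 with all libraries.

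Wortmannin, the positive control, moved 22 members, 9 of them higher and 13 lower, where 32.2% of all tested genes were called, 16.2% higher and 16.0% lower. In lower glycolysis 4 of 6 fell and none rose. HK2, the hexokinase that insulin and PI3K signalling are known to induce, had 72.7, 76.1 and 74.7 CPM, against 102, 106 and 106 CPM with vehicle, a log2 change of -0.49 (SE 0.05, adjusted p = 4.38e-11). SLC2A3 had 163, 171 and 157 CPM, against 221, 218 and 231 CPM with vehicle, a log2 change of -0.45 (SE 0.04, adjusted p = 2.22e-14). PFKFB3 with 4.38, 4.77 and 4.03 CPM changed by -0.42 (SE 0.12, adjusted p = 0.00414), and PKM with 589, 583 and 592 CPM by -0.37 (SE 0.03, adjusted p = 4.95e-14). Wortmannin libraries lay below vehicle in each of these 4 genes. HIF1A fell as well, with 203, 196 and 202 CPM, against 248, 244 and 249 CPM with vehicle, a log2 change of -0.30 (SE 0.04, adjusted p = 2.65e-07).

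Other members rose with wortmannin. NDRG1 had 42.6, 43.2 and 47.8 CPM, against 31.4, 29.8 and 36.9 CPM with vehicle, a log2 change of 0.45 (SE 0.06, adjusted p = 1.36e-07). ALDOC had 20.8, 19.04 and 20.6 CPM and changed by 0.41 (SE 0.08, adjusted p = 3.21e-05), and PFKFB4 had 15.4, 15.2 and 14.5 CPM and changed by 0.40 (SE 0.09, adjusted p = 0.000259). PFKM had 2.62, 2.59 and 2.49 CPM and changed by 0.47 (SE 0.15, adjusted p = 0.0111), but was not called with DESeq2 (adjusted p = 0.0543) or without vehicle replicate 2 (0.0662). All wortmannin libraries of these 4 genes were above the vehicle libraries. P4HA1 (0.31), PFKL (0.21), BNIP3L (0.20), SLC2A1 (0.15) and P4HA2 (0.13) rose by less; P4HA2 was called neither with DESeq2 (adjusted p = 0.0772) nor without any 1 of 5 of the 6 libraries, and BNIP3L was lost without vehicle replicate 1 (0.125) or 2 (0.0804) or wortmannin replicate 1 (0.0747).

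HIF1A, whose protein is the sensor output of the pathway, had its highest RNA level with Coptidis Rhizoma. It had 248, 244 and 249 CPM with vehicle, 260.0, 269.7 and 264 CPM at 8.4 ug/mL, 291, 304 and 302 CPM at 42 ug/mL and 377, 393 and 393 CPM at 210 ug/mL. The log2 change was 0.27 (SE 0.04, adjusted p = 5.91e-07) at 42 ug/mL and 0.65 (SE 0.04, adjusted p = 1.12e-18) at 210 ug/mL. The libraries of both doses lay above all vehicle libraries, and so did those of the lowest dose, by less, without passing the test. Scutellariae Radix gave 253, 256 and 249 CPM at 20, 217, 230.4 and 229 CPM at 100 and 266, 262 and 263 CPM at 500 ug/mL. Fresh ginger gave 223, 227 and 223 CPM at 20 and 234, 233 and 223 CPM at 100 ug/mL, all below the vehicle libraries but not called, and 284, 277 and 279 CPM at 500 ug/mL, above them. The most members called as higher, 34 each, were found with fresh and dried ginger at 500 ug/mL. Whether HIF1A RNA had a part in the changes of the other members was not tested.

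The rest of the pathway was read from 4 further gene lists. Like the members, these lists were chosen with earlier results of these data known. Beside their counts stand the shares of all tested genes: with fresh ginger 500 23.5% were called as higher and 22.5% as lower, with dried ginger 500 21.5% and 20.9%, with Scutellariae Radix 500 24.7% and 25.5%, with Coptidis Rhizoma 210 34.8% and 34.5%, and with wortmannin 16.2% and 16.0%. Among 13 other HIF subunits and oxygen-sensing genes, fresh ginger 500 gave 1 higher, the HIF alpha subunit EPAS1 (0.26), and 2 lower, the partner subunits ARNT (-0.18) and ARNT2 (-0.42), a smaller share than of all genes in both directions. Among 31 other HIF targets it gave 22 higher and 3 lower, with a median log2 change of 0.39. The collagen cross-linking enzyme LOXL2 changed by 2.54 (SE 0.19, adjusted p = 6.3e-18) and the circadian repressor BHLHE40 by 1.96 (SE 0.10, adjusted p = 2.38e-23). EPO (-0.26), which encodes erythropoietin, the glycogen regulator PPP1R3C (-0.54) and SLC2A14 (-0.33) fell. Dried ginger 500 gave 18 higher and 2 lower in this list, and Scutellariae Radix 500 gave 9 higher and 12 lower, where 50.2% of all genes were called.

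**Figure D5:**
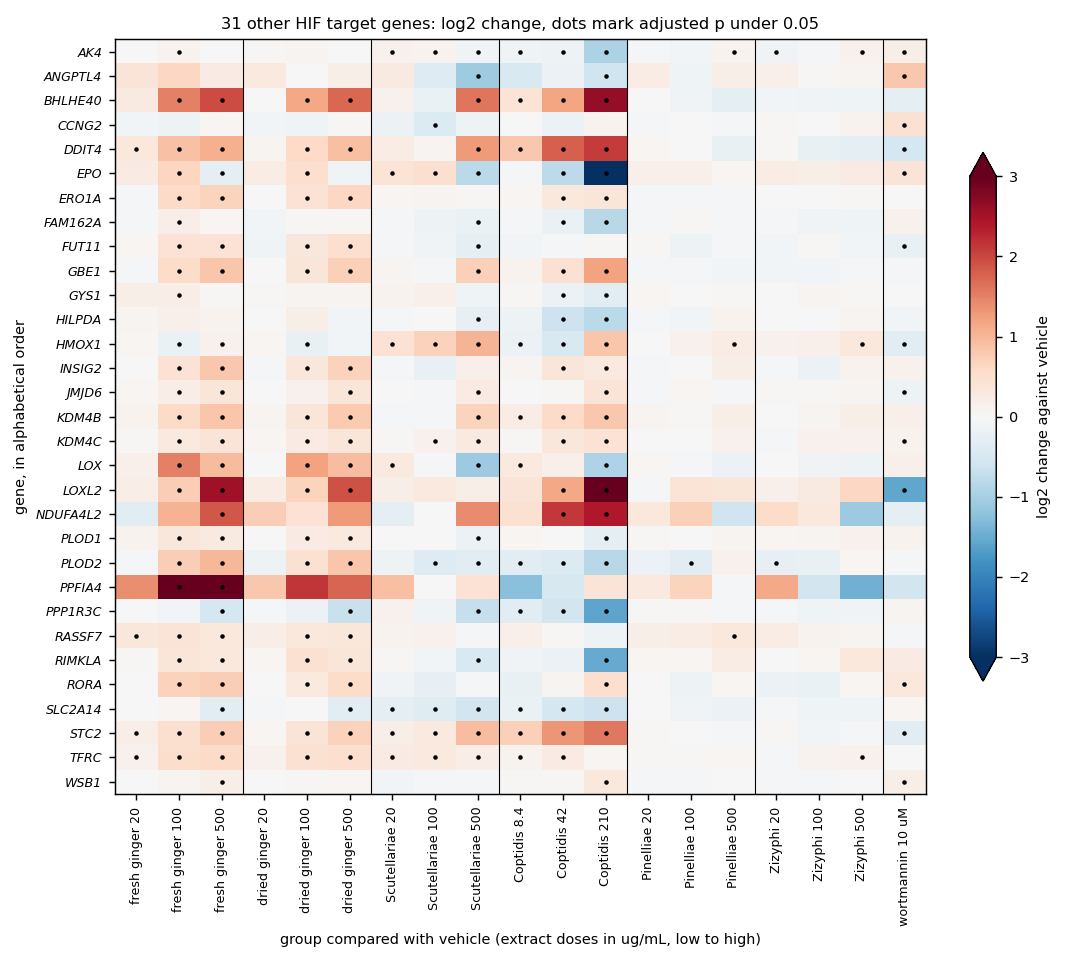
Log2 change against vehicle (colour) of 31 other HIF target genes (rows) in the 19 treated groups (columns), with a dot where edgeR's adjusted p was under 0.05. Fresh ginger 500 ug/mL has 22 red and 3 blue called genes, and Scutellariae Radix 500 ug/mL has 9 red and 12 blue.

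BHLHE40 rose with Scutellariae Radix 500 too (1.62, SE 0.10, adjusted p = 5.21e-20), as did the mTOR inhibitor DDIT4 (1.29) and the haem-degrading enzyme HMOX1 (1.02), while the cross-linking enzyme LOX (-1.09) and the lipase inhibitor ANGPTL4 (-1.06) fell. The difference in dose step between Scutellariae Radix and fresh ginger passed in 19 of these 31 genes, negative in 16 and positive in 3. Of all tested genes, 28.4% were called in this test, 16.5% negative and 11.9% positive. The difference was -2.34 (SE 0.28, adjusted p = 3.73e-09) for LOXL2, -2.19 (SE 0.11, adjusted p = 4.16e-22) for LOX and -1.24 (SE 0.09, adjusted p = 2.29e-16) for the collagen lysyl hydroxylase PLOD2. Coptidis Rhizoma 210 gave 14 higher (all genes, 34.8%), among them BHLHE40 (2.63) and LOXL2 (4.50), and 12 lower (all genes, 34.5%), among them EPO (-3.34). Wortmannin gave 7 higher and 6 lower, where 32.2% of all genes were called, with LOXL2 the lowest (-1.56).

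A list of 16 genes of pyruvate fate and lactate holds genes of mitochondrial pyruvate use together with lactate dehydrogenase and transporter genes. With fresh ginger it had 2 lower at 20, 6 at 100 and 9 at 500 ug/mL, where 2.35%, 10.2% and 22.5% of all genes were lower. With dried ginger it had 0, 5 and 8 lower at these doses, where 0.0601%, 7.75% and 20.9% of all genes were. The share of all genes called as lower thus also rose with dose. Fresh ginger 500 gave 2 higher, pyruvate carboxylase PC (0.48) and the dehydrogenase phosphatase PDP1 (0.48), and among the 9 lower were the carrier subunits MPC1 (-0.60, SE 0.05, adjusted p = 1.61e-13) and MPC2 (-0.64, SE 0.06, adjusted p = 1.43e-13), the lactate dehydrogenase LDHD (-0.68) and the kinase PDK2 (-0.59). Scutellariae Radix 500, where LDHA and PDK1 fell, had 10 of the 16 lower (25.5% of all genes), with MPC1 at -0.92, and Coptidis Rhizoma 210 had 13 lower (34.5% of all genes), with LDHD at -2.32 and MPC1 at -1.92. Wortmannin gave 4 higher, led by LDHD (1.27), and 1 lower.

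Of 17 other sugar transporters and glycolytic isoforms, fresh ginger 500 gave 7 higher and 5 lower, where 23.5% of all genes were higher and 22.5% lower. Isoforms typical of liver were among the lower ones: the transporter SLC2A2 changed by -0.71 (SE 0.05, adjusted p = 5.06e-17) and pyruvate kinase PKLR by -0.98 (SE 0.08, adjusted p = 1.93e-15), while the hexokinase HKDC1 changed by 1.17 (SE 0.05, adjusted p = 2.62e-27). With Coptidis Rhizoma 210 these were -2.04, -2.05 and 2.31. With wortmannin SLC2A2 (0.65) and PKLR (0.64) rose instead, and HKDC1 did not pass (0.03).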

How the data were processed

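RNA sequencing was made from 59 HepG2 libraries in 20 groups, with directional MGI mRNA libraries and paired reads of 100 bases, per the labels' protocols. RSEM gave the expected counts that the authors deposited, 1 value per gene and library; FastQC 0.11.9, Trim Galore 0.6.5, STAR 2.7.3a, RSEM 1.3.3 and the build GRCh38 are named in the submitters' processing notes, and the strand setting and annotation are not stated in what was used here. Rounding came first, since 24.44% of nonzero values were not whole. The table held 267 columns, of which 208 were not used because they match no sample of this series. Symbols were matched for 56558 identifiers and GENCODE 29 coordinates for 57055.

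Tests ran in R 4.3.3 with edgeR 4.0.16, which uses limma 3.58.1. After filterByExpr 16641 genes remained, libraries were scaled by TMM, and 1 quasi-likelihood model of 20 group means gave 31 comparisons with Benjamini-Hochberg adjustment over all tested genes, two-sided, at 0.05. The common dispersion was 0.00195 (a coefficient of variation of 4.4%), with 39 residual and 8.5 prior degrees of freedom. The steps were tested on simulated counts with 200 changed genes. The comparisons of 500 with 100 ug/mL of either ginger were added after values were seen. Alternatives were DESeq2 1.42.0, RLE size factors, no filter, only the groups compared, a minimum log2 change of 0.25 (glmTreat), a replicate block, and leaving out libraries.

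The members and lists were chosen with earlier results of these data known, and 2 genes of the lists beyond the members are not reported here. Values per library are given for the called members with the largest changes (up to 8 at a top dose, up to 4 otherwise), for at least 1 member of each role with fresh ginger 500 ug/mL, for HIF1A, and for members moving against the majority; other members were named after their values were seen. For each pair of replicates a chi-square was taken over genes with at least 100 counts in the pair, where 1 is expected from sampling noise, and a mean above 15 against both others marked a library as standing apart. No label says that replicates were separate cultures, so p-values cover only a spread between samples that may be technical. Same-numbered replicates deviated from their group means with correlations between -0.062 and 0.091 across groups (median 0.006), so the numbers were not taken to pair samples. Every title carries the same batch label; a number in the title code that is shared by the doses of an extract, but not by an extract and vehicle, has no stated meaning, and if it marks a batch, a comparison with vehicle also crosses it.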

Additional observations from a re-analysis of the deposited data

Results flagged for a closer look

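The dose step from 20 to 500 ug/mL differed between Scutellariae Radix and fresh ginger in 31 of the 37 members, by edgeR's quasi-likelihood test of the difference of both steps at an adjusted p under 0.05. The difference was negative, toward lower with Scutellariae Radix, in 30 of them. Of all tested genes, 28.4% were called in this test, 16.5% negative and 11.9% positive. In 13 members Scutellariae Radix was called as lower and fresh ginger as higher, among them SLC2A3, PDK1, LDHA and P4HA1, and the opposite pattern was found in 0. The share of all tested genes with either pattern was not counted. The smallest absolute difference among the 31 was that of HIF1A. Leaving out any 1 of the 12 libraries gave 30 to 32 members. No group had more than 3 libraries, so no library was examined for lying far from the rest of its group on single genes.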

How the results depend on the processing

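Each count of members was recomputed under 7 other settings and without each library in turn. None of the named changes reversed: 6254 single-gene values kept their side of the threshold and 481 did not, 197 of them where a minimum log2 change of 0.25 was required and 228 where a library was left out. Counts that moved by over 1.5 times follow; the minimum change lowers counts by its construction, and for the other settings the cause was not tested. With the minimum change, Coptidis Rhizoma had 5 members at 8.4 ug/mL, 15 at 42 and 22 at 210 against 8.4; Scutellariae Radix 0 at 20, 1 at 100, 13 at 500 and 16 at 500 against 20; wortmannin 4; dried ginger 20 at 100 and 8 at 500 against 100; fresh ginger 0 at 20 and 6 at 500 against 100; fresh against dried ginger 0 at 20, 1 at 100 and 0 at 500; and Pinelliae Tuber and Zizyphi Fructus 0 at 500 and 0 at 500 against 20. DESeq2 called 1 in Pinelliae Tuber 100 and 3 in Zizyphi Fructus 500 against 20. A fit of only the groups compared called 1 in Pinelliae Tuber 20 and 1 at 500, 1 in dried ginger 20, 0 and 14 for fresh against dried ginger at 20 and 100, and 0 in Zizyphi Fructus 500 against 20. Without the low-count filter Zizyphi Fructus had 1 at 100, 1 at 500 and 2 at 500 against 20. Without the libraries that stood apart, fresh ginger 20 had 11 and Zizyphi Fructus 100 had 1.

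Leaving out 1 library gave 1 to 7 members for fresh ginger 20, 32 to 33 at 100, 34 at 500, 33 to 35 at 500 against 20 and 15 to 18 at 500 against 100. It gave 0 for dried ginger 20, 31 to 32 at 100, 33 to 34 at 500, 33 to 34 at 500 against 20 and 16 to 18 at 500 against 100. Fresh against dried ginger gave 0 to 1 at 20, 5 to 7 at 100 and 2 to 4 at 500. Scutellariae Radix gave 2 to 7 at 20, 10 to 13 at 100, 26 to 28 at 500 and 25 to 28 at 500 against 20, and the difference of its dose step from that of fresh ginger 30 to 32. Coptidis Rhizoma gave 10 to 12 at 8.4, 27 to 29 at 42, 28 to 30 at 210 and 30 to 33 at 210 against 8.4. Pinelliae Tuber gave 0 at 20, 0 at 100, 1 to 5 at 500 and 1 to 3 at 500 against 20. Zizyphi Fructus gave 0 to 2 at 20, 0 at 100, 0 to 2 at 500 and 1 to 6 at 500 against 20; its all-gene count at 20 lay between 16 and 2242. The all-gene count lay between 410 and 588 for Scutellariae Radix 20 (789 with all libraries), and for fresh against dried ginger between 28 and 51 at 100 (63) and between 158 and 605 at 500 (305). Wortmannin gave 20 to 22.

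The replicate block kept 501 member calls, gave 2 members in Zizyphi Fructus 500 against 20, and lost PGK1 in Coptidis Rhizoma 42 (adjusted p = 0.052), SLC16A3 in Coptidis Rhizoma 210 (0.0516) and PFKL in Scutellariae Radix 20 (0.0515); replicates share only a number. Depth limits CA12, CA9, EGLN3 and HK1, whose vehicle libraries held at most 31 counts.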
